A study of Mus musculus with 3 samples.

Results

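Heart RNA of 12-week mice with both Rbm20 alleles mutated was compared with that of mice with 1 mutated allele, across exons and across genes. The homozygote carried the knock-in I538T mutation on both copies of Rbm20, and the heterozygote carried it on 1 copy beside a wild-type copy. A wild-type library of the same age was sequenced alongside, and its values are given for context. Each genotype had 1 library of total RNA from heart, with no chamber named in the labels. The study's methods describe a single representative library per genotype and age, while a legend speaks of PSI averaged over several mice, so whether a library holds the RNA of 1 heart or of several is unclear. The mutation was made by CRISPR/Cas9, with founders crossed to C57BL/6J mice, and as a germline change it is not limited to heart muscle. The table of exonic parts, which are exons cut at every annotated boundary, held 469293 parts. Of these, 148252 had at least 50 inclusion plus exclusion reads in both the homozygote and the heterozygote library, and 12757 of 52071 gene identifiers averaged at least 1 CPM (inclusion reads scaled to the library's total).

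With 1 library per genotype there was no replicate check. No p-value was computed, and differences between these libraries cannot be told apart from differences between the mice or preparations they came from. Intervals in brackets are 95% counting intervals (Clopper-Pearson, exact) and cover counting error only. The homozygote library held 157990953 inclusion reads, the heterozygote library 157178099 and the wild-type library 149633524. The summed level of 10 cardiomyocyte markers was 68700 CPM in the homozygote, 70719 CPM in the heterozygote and 62901 CPM in the wild-type, so each library carried the markers of its labelled tissue. Markers of small intestine summed to 8.30 CPM in the homozygote and 7.37 CPM in the heterozygote, against 67.8 CPM in the wild-type. Red blood cell genes stood apart, with 107596 CPM in the homozygote, 32046 CPM in the heterozygote and 86344 CPM in the wild-type. Such bulk levels cannot tell more cells of a type from more RNA per cell.

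RBM20 is an RNA-binding protein of striated muscle that binds UCUU motifs in introns and represses the inclusion of exons in transcripts of the sarcomere and of calcium handling. Its best known target is titin, the giant spring protein of the sarcomere, whose elastic I-band segment is shortened when RBM20 is active. The mutated residue lies in the RNA recognition motif, the domain that contacts RNA. The 2 alleles are printed because the gene counts cannot show them. They cover the last 84 bases of exon 6 (exon at chr19:53832646-53832789, plus strand, GRCm38, GENCODE M21, coding), 5′ to 3′, with the mutated codon in capitals.
Rbm20 I538T: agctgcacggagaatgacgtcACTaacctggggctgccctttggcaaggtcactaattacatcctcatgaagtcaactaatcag
Rbm20 wild-type: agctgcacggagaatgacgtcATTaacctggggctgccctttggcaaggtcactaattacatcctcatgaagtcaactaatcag
The substitution is T1613C, counted from the first base of the coding sequence, at position 53832728 of chromosome 19. Rbm20 itself was measured at 40.6 CPM in the homozygote, 36.0 CPM in the heterozygote and 37.2 CPM in the wild-type. The count of a gene does not show a point mutation, so this level does not check the genotype. None of the 18 measured Rbm20 parts differed by more than 3.46 points between homozygote and heterozygote.

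The percent spliced in (PSI) of a part is the share of transcripts that include it, from its inclusion reads and the exclusion reads that skip it, with inclusion reads scaled to the part's length. Differences are homozygote minus heterozygote, in points. In 87792 measured parts (59.2%) neither library had an exclusion read, so the PSI was 100% in both. Among the 11588 parts with a PSI between 5% and 95% in both libraries, the median absolute difference was 4.33 points and the median signed difference was -0.40 points. At least 20 points higher in the homozygote were 673 parts, 0.454% of those measured. At least 20 points lower were 677 parts, 0.457% of those measured. These 1350 parts belonged to 594 gene names, 4.15% of the 14305 with a measured part. Without scaling to part length the total was 1347, with 509 higher and 838 lower. The share past 20 points was 1.32% among parts with 50 to 100 reads in the shallower library, and 0.713% among parts with at least 1000. Within 1 point of the limit lay 105 parts inside and 115 outside.

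A large number of these parts were not simple exons of 1 gene. Of the 1350, 171 lay where several genes overlap, and 261 had the same exclusion counts in all 3 libraries as a part of another gene within 1 Mb, meaning that 1 set of reads was counted against several genes. The broadest case was on chromosome 11, where 432 exclusion reads in the homozygote, 0 in the heterozygote and 338 in the wild-type covered 83 parts of 9 genes between 101445439 and 101767358, among them Nbr1, Dhx8, Ifi35 and Rpl27. In 395 of the 1350 (29.3%) only 1 of the 2 libraries had any exclusion read. A stricter rule, set after these values were seen, kept single-gene parts with unshared exclusion counts and an interval of the difference without 0. It left 829 parts, 0.631% of 131398 single-gene parts, in 450 genes, which is 3.27% of the genes with such a part. There were 441 higher and 388 lower. Titin alone supplied 104, all higher, and the other 449 genes supplied 337 higher and 388 lower.

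**Figure D1:**
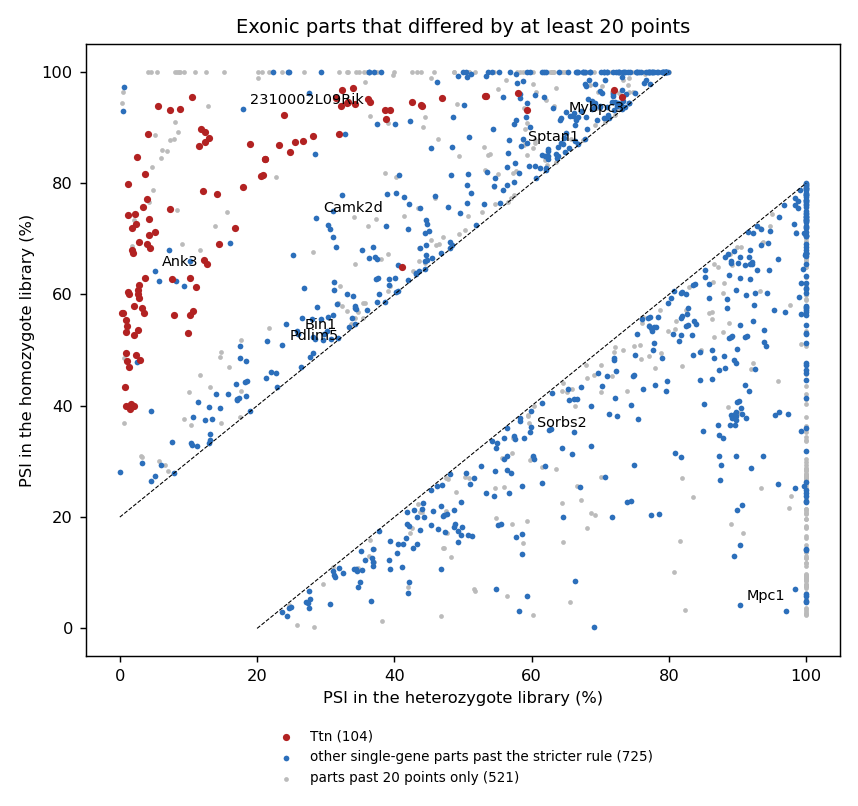
PSI in the homozygote library (vertical axis, %) against PSI in the heterozygote library (horizontal axis, %) for the 1350 parts that differed by at least 20 points, with dashed lines at 20 points. The 104 Ttn parts (red) lie above the upper line, while the 725 parts of other genes under the stricter rule (blue) lie on both sides and the remaining 521 parts are grey.

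Wild-type PSI was set beside both genotypes for the parts under the stricter rule. It was not used in the difference, but wild-type exclusion counts entered the rule on shared counts, and at least 50 wild-type reads were required. Of the 104 Ttn parts, wild-type PSI was nearer to the heterozygote in 102 and nearer to the homozygote in 2. Of the 662 such parts of other genes, it was nearer to the heterozygote in 317 and nearer to the homozygote in 345. In these titin parts, then, it was mostly the homozygote library that stood apart. Neighbouring titin parts can share exclusion reads, so the titin parts are not independent. Among the other genes the heterozygote library stood apart about as often as the homozygote library.

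Titin (Ttn, chr2:76703980-76982547, minus strand, GRCm38) had 389 of its 392 parts measured, and 105 of them were at least 20 points higher in the homozygote. None was 20 points lower, 81 were at least 50 points higher and 6 at least 80 points higher. Over the 105 parts the median PSI was 75.7% in the homozygote, 10.2% in the heterozygote and 3.78% in the wild-type, with a median difference of 58.9 points. The heterozygote was above the wild-type in 92 of the 105. Over all 389 measured parts the median difference was 1.26 points. Parts past the limit had a median length of 279 bases, against 199 bases for the other 284 titin parts, and 95 of the 105 (90.5%) had a length that was a multiple of 3, against 198 of the 284 (69.7%).

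The largest difference was in an 87-base coding exon. It had 2450 inclusion and 96 exclusion reads in the homozygote, 75 and 751 in the heterozygote, and 21 and 779 in the wild-type. PSI was 93.8% in the homozygote, 5.63% in the heterozygote and 1.58% in the wild-type, a difference of 88.2 points (86.3 to 89.9). The 84-base exon 118 and the 81-base exon 117 of transcript Ttn-203 had similar values. Exon 118 was at 95.4% in the homozygote, 10.5% in the heterozygote and 3.78% in the wild-type. Exon 117 was at 93.2% in the homozygote, 7.34% in the heterozygote and 3.62% in the wild-type. Exons 117 and 118 are printed in transcript order because their differences were among the largest of the gene.
Ttn exon 117, chr2:76861097-76861177: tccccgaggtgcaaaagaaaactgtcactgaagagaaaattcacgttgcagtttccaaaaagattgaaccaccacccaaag
Ttn exon 118, chr2:76859914-76859997: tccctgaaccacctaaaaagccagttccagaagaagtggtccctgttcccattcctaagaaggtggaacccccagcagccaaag
Searched on the transcript strand for TCTT, the DNA form of the motif that RBM20 binds, neither held a match, where 30.3% of 782 measured parts of 81 bases and 29.3% of 755 of 84 bases did. RBM20 binds in introns, which were not searched.

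The titin parts past the limit lay mostly together along the transcript. Neighbouring parts can share skipping reads, so they are not independent. A 564-base part had 37 exclusion reads in the homozygote, 521 in the heterozygote and 557 in the wild-type. The next part, of 282 bases, had 37, 522 and 557 in that order. Of 106 measured parts in transcript order between chr2:76847388 and 76920463, 93 were past the limit. They included an unbroken run of 55 (chr2:76853605-76888087) with a median PSI of 88.4% in the homozygote, 21.1% in the heterozygote and 14.02% in the wild-type. The 39 parts that followed were mostly skipped in all libraries, with a median PSI of 4.29% in the homozygote, 2.54% in the heterozygote and 2.20% in the wild-type. A second group of 7 among 12 parts lay at chr2:76821116-76827078. Within it a part of 79 bases was at 65.6% in the homozygote, 12.7% in the heterozygote and 3.47% in the wild-type, while a 78-base part between them was at 1.89%, 2.77% and 1.82% in the same order. After that group, toward the 3′ end, most exons were near 100% in the homozygote and few parts were past the limit. The clearest was a 267-base part (chr2:76802231-76802497) at 93.1% in the homozygote, 59.3% in the heterozygote and 34.9% in the wild-type. From there on 3 more parts passed, where the heterozygote was at 70.7% to 73.2% and the wild-type at 100%, on few exclusion reads. The 300-base part among them had 2 exclusion reads in the homozygote, 14 in the heterozygote and 0 in the wild-type. Between that part and the other 2 lay 44 parts (chr2:76756267-76785004) that were all lower in the heterozygote than in the homozygote, by 2.78 to 19.1 points. Their median PSI was 98.4% in the homozygote, 89.2% in the heterozygote and 100% in the wild-type. Inclusion reads over these 44 parts differed little, at 163 CPM in the homozygote and 148 CPM in the heterozygote. Whether the 44 parts rest on the same few exclusion reads was not tested.

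**Figure D2:**
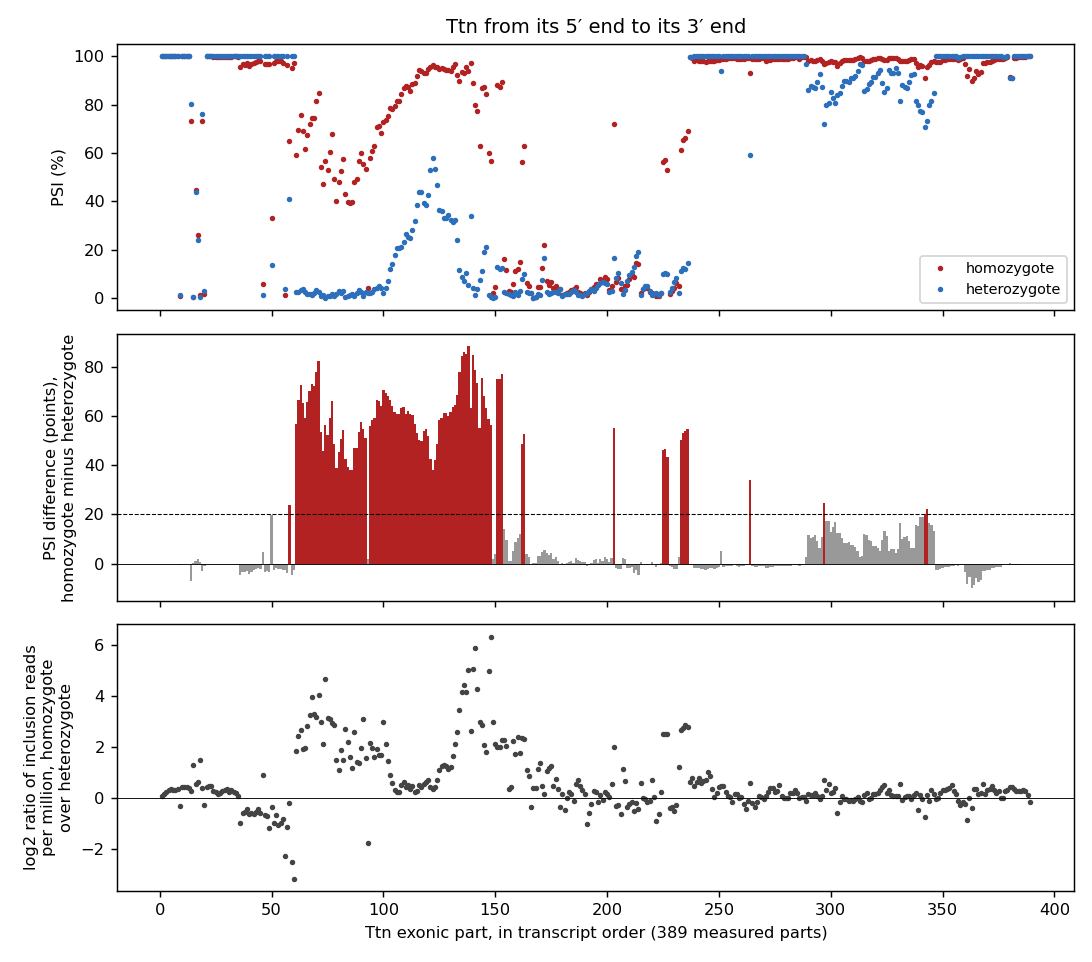
The 389 measured Ttn parts from the 5′ to the 3′ end (horizontal axis, order in the transcript). Top: PSI (%) in the homozygote (red) and heterozygote (blue). Middle: PSI difference in points, red where at least 20. Bottom: log2 ratio of inclusion reads (CPM). The block of red bars holds 93 of 106 parts, and the read ratio drops below 0 just before it and exceeds 4 within it.

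Reads over titin also differed along the gene. Over the run of 55 parts the homozygote had 378 CPM and the heterozygote 146 CPM, a ratio of 2.59. The ratio was 1.197 over the 57 parts before the first part past the limit, and 1.09 over the 46 parts after the last. The gene as a whole stood at 2142 CPM in the homozygote, 1661 CPM in the heterozygote and 1777 CPM in the wild-type over its measured parts. The pooled ratio of the first 57 parts hides lower values at their end, where parts of 109, 189 and 57 bases had ratios of 0.511, 0.562 and 0.449 without a PSI difference past the limit, and the first part past it, of 6520 bases, had 0.878. Lower ratios still followed. The coding exons of 2646 bases (chr2:76907308-76909953, exon 45 of Ttn-201) and of 279 bases (chr2:76906254-76906532, exon 46) had 868 and 231 inclusion reads in the homozygote, 4863 and 2066 in the heterozygote, and 5854 and 2160 in the wild-type. In CPM that was 0.178 and 0.111 times the heterozygote level, although PSI was 95.3% and 97.3% in the homozygote and 100% in the heterozygote. PSI and read level thus gave different pictures of these 2 exons. The next exon, of 564 bases (chr2:76903063-76903626), was at 59.3% in the homozygote, 2.78% in the heterozygote and 1.12% in the wild-type. A 6520-base part just upstream (chr2:76913944-76920463), the terminal exon of the short transcript Ttn-202, was at 64.9% in the homozygote, 41.1% in the heterozygote and 20.96% in the wild-type.

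Among 42 genes listed as RBM20 targets, 38 had a measured part and 11 had a part past 20 points, all 11 also under the stricter rule, against 4.15% of all genes with a measured part. Counts per gene favour genes with many parts. The 38 genes held 1707 measured parts, 389 of them in titin, while 148252 parts were measured in all, for 14305 gene names. Apart from titin, 10 of the 11 genes had 6 parts higher and 9 lower past the limit. Of all measured parts, 0.454% were higher and 0.457% lower. The list was drawn up with earlier results of these data known, so it is no independent evidence. Camk2d codes for the main cardiac isoform of CaM kinase, which phosphorylates calcium handling proteins. Its 60-base coding exon 14 of transcript Camk2d-203 (chr3:126805857-126805916, plus strand) was split by the annotation into parts of 5 and 55 bases. The 55-base part had 332 inclusion and 92 exclusion reads in the homozygote, 112 and 178 in the heterozygote, and 257 exclusion reads in the wild-type. Its PSI was 71.7% in the homozygote, 30.6% in the heterozygote and 6.38% in the wild-type, a difference of 41.1 points (33.7 to 47.9). The 5-base part was at 73.8% in the homozygote, 28.6% in the heterozygote and 4.98% in the wild-type. Here the 3 genotypes were ordered and their intervals did not overlap. The following 42-base exon (chr3:126808208-126808249) was at 68.7% in the homozygote, 58.5% in the heterozygote and 48.6% in the wild-type, a difference of 10.2 points (2.69 to 17.6). The sequences of both are given to tell the Camk2d exons apart, with the 5-base part in capitals.
Camk2d exon, 60 bases, chr3:126805857-126805916: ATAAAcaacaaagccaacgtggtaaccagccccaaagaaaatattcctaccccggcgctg
Camk2d exon, 42 bases, chr3:126808208-126808249: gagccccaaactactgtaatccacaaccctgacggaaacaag
Neither held TCTT, where 21.8% of 559 measured parts of 60 bases and 17.2% of 478 of 42 bases did. The introns, where RBM20 binds, were not searched, so this does not bear on its binding. Total Camk2d was 125 CPM in the homozygote, 108 CPM in the heterozygote and 110 CPM in the wild-type (log2 ratio 0.22).

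Ryr2, the cardiac ryanodine receptor through which stored calcium is released, and Ldb3, the Z-disc protein Cypher, differed by less. The 24-base Ryr2 exon (chr13:11634307-11634330, minus strand, coding) had 24 inclusion and 77 exclusion reads in the homozygote and 13 and 95 in the heterozygote. PSI was 20.8% in the homozygote, 10.3% in the heterozygote and 9.53% in the wild-type, and the interval of the 10.5-point difference ran from 0.64 to 20.4. Its sequence is short enough to recognise in reads.
Ryr2 exon, 24 bases, chr13:11634307-11634330: gtcacaggatcccaacgcagcaag
Of the 124 measured Ryr2 parts none passed 20 points. In Ldb3 (29 measured parts, minus strand of chromosome 14) 2 alternative sets of coding exons differed in opposite directions. The 359-base exon 5 of Ldb3-201 had its main part (chr14:34576995-34577344) at 88.3% in the homozygote, 96.4% in the heterozygote and 97.9% in the wild-type, a difference of -8.11 points (-9.37 to -6.85). The alternative exons downstream were higher in the homozygote. Their 15-base exon was at 14.1% in the homozygote, 4.56% in the heterozygote and 1.79% in the wild-type, and their 196-base part at 15.7%, 6.32% and 3.86% in that order. Depth here was high, with 544 inclusion and 2969 exclusion reads in the homozygote and 150 and 2812 in the heterozygote for the 15-base exon, so the intervals of all 3 genotypes were apart.

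Other listed targets with a part past the limit and an interval without 0 lay on both sides. Lmo7, a LIM domain protein of cell junctions, had a 171-base part at 63.0% in the homozygote, 40.0% in the heterozygote and 34.7% in the wild-type. Sh3kbp1, an adaptor of receptor endocytosis, had a 106-base part at 75.5% in the homozygote, 43.8% in the heterozygote and 48.2% in the wild-type. Both were noncoding in the transcripts that hold the part, at an alternative first exon. Pdlim5, a Z-disc PDZ-LIM protein, had a coding 132-base exon (chr3:142281852-142281983) at 50.9% in the homozygote, 23.7% in the heterozygote and 48.0% in the wild-type, so the heterozygote stood apart there. A 15-base Pdlim5 exon with 2522 inclusion and 1185 exclusion reads in the homozygote and 2717 and 707 in the heterozygote was ordered by genotype, at 65.6% in the homozygote, 77.5% in the heterozygote and 82.2% in the wild-type. Nprl3 had a coding 130-base exon at 67.3% in the homozygote, 88.7% in the heterozygote and 88.7% in the wild-type. Sorbs2, an adaptor of the actin cytoskeleton at the Z-disc, had a 118-base part at 35.2% in the homozygote, 59.7% in the heterozygote and 47.6% in the wild-type. That part was exon 1 of transcript Sorbs2-233, outside its coding sequence. Smaller differences with intervals without 0 included a 6-base part of Immt, a mitochondrial inner membrane protein, at 82.8% in the homozygote, 65.3% in the heterozygote and 64.4% in the wild-type. A 53-base part of Trdn, the triadin of the calcium release complex, was at 94.2% in the homozygote, 82.0% in the heterozygote and 80.2% in the wild-type. Large parts rested on few exclusion reads. The 5292-base exon of Dst, a cytoskeletal linker, was at 56.4% in the homozygote with 7 exclusion reads and at 100% in the heterozygote with 0. In Myh7, the slow myosin heavy chain, a 62-base part had 692 exclusion reads in the homozygote, 0 in the heterozygote and 169 in the wild-type, and the near-identical Myh6 lies next to it, so its reads are uncertain.

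**Figure D3:**
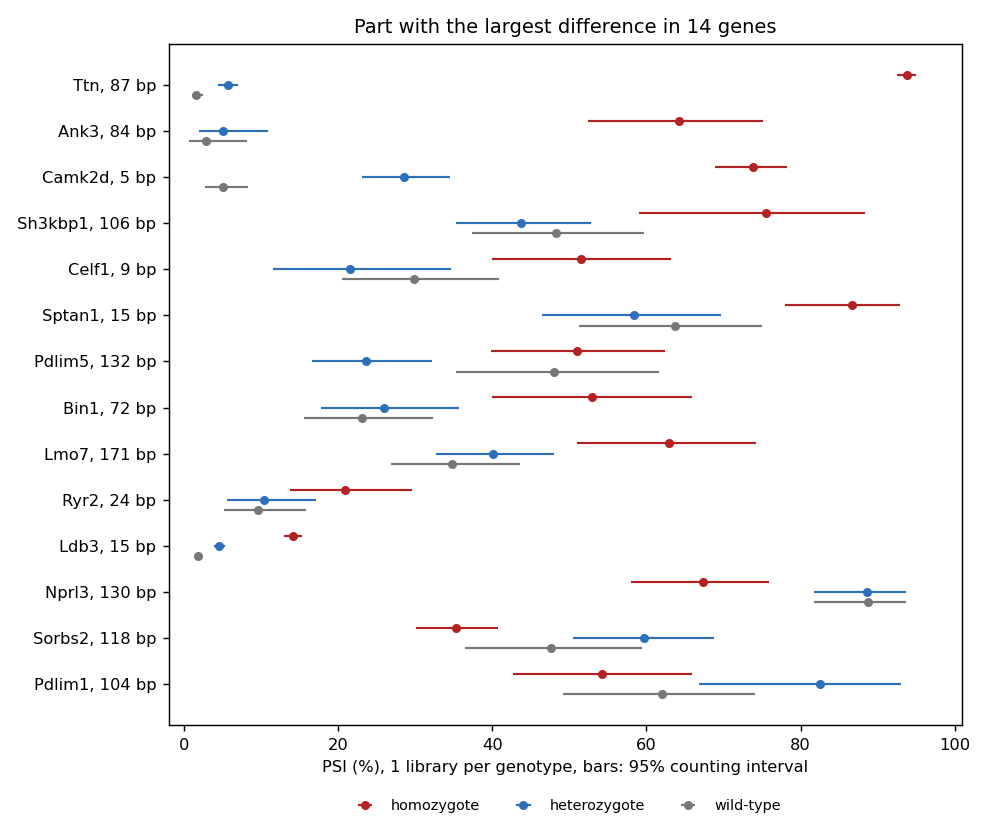
PSI (horizontal axis, %) of the part with the largest difference in each of 14 named genes, with 95% counting intervals, in the homozygote (red), heterozygote (blue) and wild-type (grey). In Ttn, Camk2d and Ldb3 the 3 intervals are apart and ordered by genotype, while in Pdlim5 the homozygote and wild-type overlap.

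Exons of another class, listed as targets of the muscleblind and CELF splicing factors, which set the adult pattern of heart splicing, also held large differences. Of its 33 genes with a measured part, 9 had a part past the limit (27.3%, against 4.15% of all genes), and several stand in the RBM20 list too. This count also favours genes with many parts. The 33 genes held 1221 measured parts, of which 15 were higher and 3 lower past the limit. Ank3, the ankyrin that anchors membrane proteins to the cytoskeleton, had 5 of its 40 measured parts past the limit, all in 1 cluster of coding exons (chr10:70006800-70014246, plus strand). The 84-base exon had 68 inclusion and 23 exclusion reads in the homozygote, 6 and 68 in the heterozygote, and 63 exclusion reads in the wild-type. It was at 64.2% in the homozygote, 5.07% in the heterozygote and 2.80% in the wild-type, a difference of 59.1 points (46.0 to 70.5). The preceding 87-base exon was at 66.1% in the homozygote, 10.2% in the heterozygote and 3.71% in the wild-type. The 51-base part before it was at 62.4% in the homozygote, 8.12% in the heterozygote and 2.26% in the wild-type. A 57-base exon behind them was at 28.2% in the homozygote and had no inclusion read among 71 reads in the heterozygote. All of these exons were at most 10.2% in the heterozygote and 3.71% in the wild-type, and the 2 longest are printed for that reason.
Ank3 exon, 87 bases, chr10:70008778-70008864: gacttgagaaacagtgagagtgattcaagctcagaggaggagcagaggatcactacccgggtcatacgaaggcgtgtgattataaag
Ank3 exon, 84 bases, chr10:70013972-70014055: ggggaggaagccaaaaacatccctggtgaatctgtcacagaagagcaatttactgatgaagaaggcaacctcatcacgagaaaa
Neither held TCTT, where 31.8% of 719 parts of 87 bases and 29.3% of 755 parts of 84 bases did. Introns were not searched here either, so this does not bear on RBM20 binding.

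Bin1, the membrane-bending protein of the T-tubule, had a coding 72-base exon at 52.9% in the homozygote, 25.9% in the heterozygote and 23.0% in the wild-type, on 42 inclusion and 24 exclusion reads in the homozygote and 30 and 55 in the heterozygote. Sptan1, the alpha chain of spectrin, had a 15-base coding exon at 86.7% in the homozygote, 58.4% in the heterozygote and 63.7% in the wild-type. In Celf1, itself a splicing factor, a 9-base part was at 51.6% in the homozygote, 21.5% in the heterozygote and 29.9% in the wild-type. All 3 had wild-type values near the heterozygote. Mef2d, a muscle transcription factor, did not. Its 121-base part was at 98.0% in the homozygote, 57.9% in the heterozygote and 100% in the wild-type, with 1 exclusion read in the homozygote, 30 in the heterozygote and 0 in the wild-type. Differences under 20 points included a 52-base part of Mbnl1, a muscleblind factor, at 64.1% in the homozygote, 45.6% in the heterozygote and 48.3% in the wild-type. A 51-base part of Mef2a was at 61.3% in the homozygote, 77.7% in the heterozygote and 69.1% in the wild-type. Of 40 splicing factors with a measured part 1 (2.5%, against 4.15% of all genes), Celf1, had one past the limit.

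In Mybpc3, the cardiac myosin-binding protein C, 15 of 37 measured parts were past the limit, all higher in the homozygote. The 105-base exon 24 had 298 exclusion reads in the homozygote, 1446 in the heterozygote and 351 in the wild-type, giving a PSI of 91.7% in the homozygote, 64.3% in the heterozygote and 85.8% in the wild-type. Neighbouring parts had nearly the same exclusion counts, such as 286 in the homozygote, 1445 in the heterozygote and 263 in the wild-type over a 133-base part, so the 15 parts are not independent. Atp5a1, a subunit of the mitochondrial ATP synthase, had 802 exclusion reads in the homozygote, 4429 in the heterozygote and 2232 in the wild-type over a 5-base part, at 91.8% in the homozygote, 71.0% in the heterozygote and 79.7% in the wild-type. Outside the lists, a 4-base part of Mpc1, the mitochondrial pyruvate carrier, was at 4.12% in the homozygote, 90.3% in the heterozygote and 4.17% in the wild-type. It had 18832, 83 and 19192 exclusion reads in that order, but nearly equal inclusion reads, at 835, 798 and 860, so these PSI values are uncertain. A 77-base Mpc1 part was also lower in the homozygote, while a 34-base part was higher, at 100% in the homozygote, 59.8% in the heterozygote and 100% in the wild-type. Many of the largest values outside the lists lay in gene families with near-identical members, where reads are uncertain. Selenbp2 had a 31-base part at 97.3% in the homozygote, 0.60% in the heterozygote and 98.5% in the wild-type, and its near-copy Selenbp1 was also past the limit. Among the 15 highest outside the lists with wild-type on the heterozygote's side was 2310002L09Rik, a gene without an assigned function here. Its last exon (chr4:73939371-73939598, partly coding) had 924 inclusion and 24 exclusion reads in the homozygote and 32 and 53 in the heterozygote. PSI was 93.3% in the homozygote, 17.9% in the heterozygote and 2.35% in the wild-type, and an upstream 977-base part was at 22.9% in the homozygote, 74.5% in the heterozygote and 70.6% in the wild-type. Slc4a3, the anion exchanger of heart muscle, had a 117-base part in a retained intron at 13.6% in the homozygote, 40.3% in the heterozygote and 30.4% in the wild-type.

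Gene levels are given in CPM, and ratios are log2 of homozygote over heterozygote after adding 1 CPM, which understates differences of low genes. At a log2 ratio of at least 1 there were 71 genes, 0.557% of 12757, and at -1 or less there were 59, 0.462%. Scaling by TMM gave 84 and 43. The median over all genes was -0.10 and 93.5% of genes lay within 0.5 of it. The median became 0.01 when the red blood cell genes were left out of the library totals, a shift of 0.12 in the ratios. Wild-type was nearer to the heterozygote in 28 of the 71 higher genes and nearer to the homozygote in 43. For the 59 lower genes it was nearer to the heterozygote in 37 and nearer to the homozygote in 22.

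**Figure D4:**
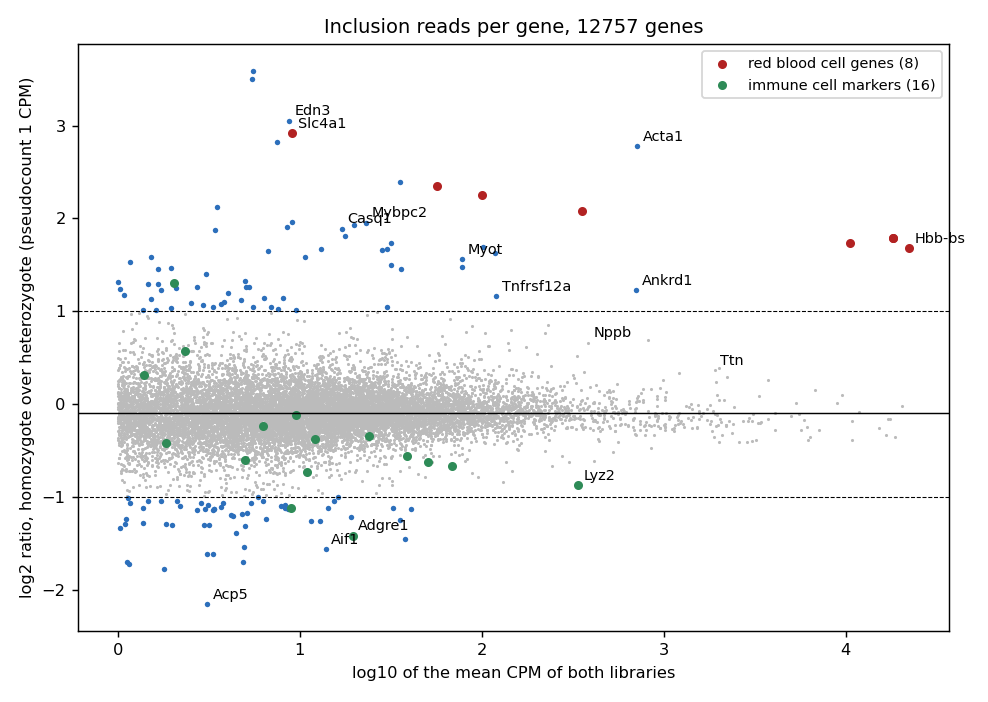
Log2 ratio of homozygote over heterozygote (vertical axis) against log10 of the mean CPM of both libraries (horizontal axis) for 12757 genes, with dashed lines at 1 and -1 and a solid line at the median of -0.10. Red points are the 8 red blood cell genes, all above 1, and green points are 16 immune cell markers, with a median of -0.49.

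Among the higher genes with wild-type nearer to the heterozygote were several muscle genes. Acta1, the skeletal alpha-actin that the fetal and stressed heart also uses, was at 1249 CPM in the homozygote, 181 CPM in the heterozygote and 145 CPM in the wild-type, a log2 ratio of 2.78. Mybpc2, the fast myosin-binding protein C, was at 37.5 CPM in the homozygote, 8.95 CPM in the heterozygote and 5.73 CPM in the wild-type (1.95). Casq1, the calcium buffer of skeletal sarcoplasmic reticulum, was at 27.6 CPM in the homozygote, 6.71 CPM in the heterozygote and 6.03 CPM in the wild-type (1.89). The homozygote was the outlying library in each. Myot, the Z-disc protein myotilin, was at 117 CPM in the homozygote, 39.0 CPM in the heterozygote and 43.6 CPM in the wild-type (1.56). Ankrd1, a stretch-responsive titin-binding protein, was at 987 CPM in the homozygote, 421 CPM in the heterozygote and 400 CPM in the wild-type (1.23). Cacna1s, the skeletal L-type calcium channel, was at 10.5 CPM in the homozygote, 4.65 CPM in the heterozygote and 6.61 CPM in the wild-type (1.03). Of 20 skeletal muscle markers only 8 passed the minimum, 5 of those were at least 1 and the median of the 8 was 1.29. The lowest of the 8 was Mylpf, at 2.09 CPM in the homozygote, 3.07 CPM in the heterozygote and 2.69 CPM in the wild-type (-0.40). The defining fast fiber genes were near 0, with no Myh2 read and only 4 Myh1 and 2 Myh4 reads in the homozygote, and Ckm was at 1546 CPM in the homozygote and 1551 CPM in the heterozygote.

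Of the 35 Z-disc, intercalated disc and costamere genes past the minimum, 33 were above the median of all genes, which was itself below 0, only Myot and Ankrd1 reached 1, none reached -1, and the list median was 0.18. The lowest was Tln2, a talin, at -0.21. Fhl1, a stretch-associated LIM protein, was at 104 CPM in the homozygote and 60.3 CPM in the heterozygote (0.78). Xirp2 was at 134 CPM in the homozygote and 86.4 CPM in the heterozygote (0.63), and Sorbs2 at 212 CPM in the homozygote and 138 CPM in the heterozygote (0.62). Synpo2l was at 38.6 CPM in the homozygote and 25.5 CPM in the heterozygote (0.58). In the heart failure and remodelling list, 18 genes had a median of 0.34, with Acta1 and Ankrd1 the only members at 1 or more. The natriuretic peptide genes, which ventricular muscle turns on under load, were ordered by genotype below that limit in these single libraries. Nppb was at 470 CPM in the homozygote, 298 CPM in the heterozygote and 144 CPM in the wild-type (0.66), and Nppa at 157 CPM in the homozygote, 126 CPM in the heterozygote and 83.1 CPM in the wild-type (0.31). Nmrk2, a nicotinamide riboside kinase, was at 9.60 CPM in the homozygote, 7.005 CPM in the heterozygote and 4.41 CPM in the wild-type (0.41). The fibrosis genes were not ordered. Col1a2 was at 166 CPM in the homozygote, 128 CPM in the heterozygote and 162 CPM in the wild-type (0.37), and Mmp2 at 54.9 CPM in the homozygote, 48.9 CPM in the heterozygote and 64.8 CPM in the wild-type (0.16). Lists of RBM20 targets, sarcomere genes and calcium handling genes had medians of -0.03, -0.01 and -0.04, close to the -0.10 of all genes.

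**Figure D5:**
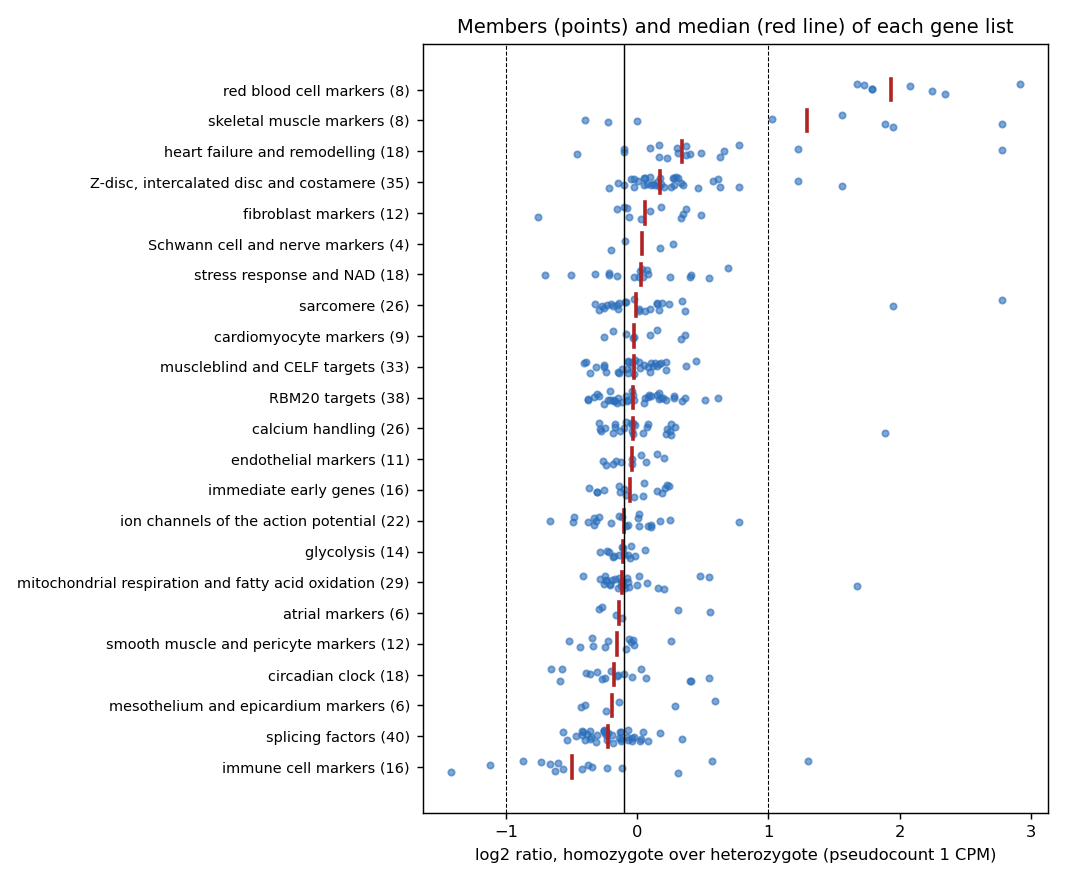
Log2 ratio of homozygote over heterozygote (horizontal axis) for members of each gene list with at least 4 genes past 1 CPM (number in brackets), with list medians as red lines, the median of all genes as a solid line and dashed lines at 1 and -1. Red blood cell markers (median 1.94) and skeletal muscle markers (1.29) lie highest, and immune cell markers (-0.49) lowest.

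Genes of blood cells were also among the higher ones. All 8 listed red blood cell genes reached 1, with a median of 1.94. Hbb-bs, an adult beta-globin, was at 34124 CPM in the homozygote, 10663 CPM in the heterozygote and 27738 CPM in the wild-type. Slc4a1, the band 3 anion exchanger of the red cell membrane, was at 16.8 CPM in the homozygote, 1.36 CPM in the heterozygote and 15.6 CPM in the wild-type. In these genes the heterozygote was the low library. Angptl4, a lipoprotein lipase inhibitor, was low in the heterozygote too, at 20.3 CPM in the homozygote, 5.69 CPM in the heterozygote and 21.9 CPM in the wild-type. Edn3, which encodes endothelin 3, was at 16.5 CPM in the homozygote, 1.101 CPM in the heterozygote and 1.55 CPM in the wild-type (3.06), the highest ratio outside the lists apart from Ifi27l2b and Rpl27-ps2. Ifi27l2b and Rpl27-ps2 belong to gene families with near-identical copies and are uncertain. Ppbp and Itga2b, which platelets express, were named after their values were seen. Ppbp was at 16.6 CPM in the homozygote, 4.86 CPM in the heterozygote and 4.54 CPM in the wild-type, and Itga2b at 11.5 CPM in the homozygote, 4.66 CPM in the heterozygote and 4.03 CPM in the wild-type.

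Several macrophage genes were lower in the homozygote. The 16 immune cell markers past the minimum had a median of -0.49, with 3 above the median of all genes, 2 at -1 or less and S100a9, a neutrophil gene, at 1.31. The neutrophil gene S100a8 was at 0.57 and the B cell gene Cd79a at 0.31. Adgre1, the F4/80 antigen of macrophages, was at 10.2 CPM in the homozygote, 28.9 CPM in the heterozygote and 15.4 CPM in the wild-type (-1.42). Cd52 was at 5.24 CPM in the homozygote, 12.6 CPM in the heterozygote and 8.78 CPM in the wild-type (-1.12). Lyz2 was at 239 CPM in the homozygote, 438 CPM in the heterozygote and 383 CPM in the wild-type (-0.87). Wild-type lay between the genotypes in all 3, nearer to the homozygote in Adgre1 and nearer to the heterozygote in Lyz2. It also lay between them in C1qb and C1qc. In the listed markers Csf1r, Cd163, Cd68, Mrc1 and C1qa, wild-type was instead the highest library and the homozygote the lowest. Csf1r, for example, was at 21.1 CPM in the homozygote, 27.1 CPM in the heterozygote and 36.7 CPM in the wild-type. The markers thus differed in where wild-type lay. The summed markers were 446 CPM in the homozygote, 757 CPM in the heterozygote and 699 CPM in the wild-type. Outside the list, Aif1, a macrophage calcium-binding protein, was at 6.53 CPM in the homozygote, 21.3 CPM in the heterozygote and 8.94 CPM in the wild-type (-1.57), and Coro1a, a leukocyte actin regulator, at 20.7 CPM in the homozygote, 50.4 CPM in the heterozygote and 38.2 CPM in the wild-type (-1.24). Acp5, an acid phosphatase of osteoclasts and macrophages, had the lowest ratio, at 0.51 CPM in the homozygote, 5.71 CPM in the heterozygote and 0.53 CPM in the wild-type (-2.16). Their part in the muscle and splicing values was not tested. Lists of fibroblast, endothelial and smooth muscle markers had medians of 0.06, -0.04 and -0.15, with no member at 1 or -1, and 40 splicing factors had a median of -0.22 with none past either limit.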

How the data were processed

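Total RNA of 12-week hearts was sequenced from 3 libraries, 1 per genotype (SMART-seq v4, Nextera XT, Illumina NovaSeq). According to the submitters' processing notes, reads were trimmed with cutadapt 1.1 and Trimmomatic 0.32 and aligned to GRCm38 with TopHat2 2.0.14, with Bowtie 1.1.1 also named. The deposited counts are inclusion and exclusion reads per exonic part and library, and the deposited PSI is a fraction that the authors computed from these counts. PSI was recomputed as inclusion reads over part length plus 129, divided by the same plus exclusion reads over 129, in percent. Not used were 3 PSI columns without a sample record here and 2 columns of the authors' own comparisons, which hold PSI differences.

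Parts needed 50 reads in both libraries, and a difference of 20 points was called. Gene levels were inclusion reads as CPM over identifiers of 1 gene, which count a read once for each part it covers, with a minimum mean of 1 CPM, a pseudocount of 1 CPM and a log2 limit of 1. Intervals are 95% Clopper-Pearson intervals and cover counting error only, since PCR copies and reads over several parts are not independent. No test between genotypes was possible. The 25 gene lists (452 genes) and the comparison itself were chosen with earlier results of these data known. The rule for named genes took Rbm20, the genes the study discusses, list members past a limit (for PSI, with an interval without 0) and, among all unlisted genes, the 15 most different in each direction. The text gives values for examples of these only, and leaves out others, such as Col3a1. Other genes, such as list members below the limits, Ppbp, Itga2b, Coro1a, Slc4a3 and Selenbp1, were named after their values were seen. Sequences came from GENCODE M21 transcripts, and the Rbm20 change from the study's text. Calculations used Python 3.11.15, numpy 2.4.6, pandas 2.3.3, scipy 1.17.1, matplotlib 3.10.9 and, for TMM scaling, edgeR 4.0.16 in R 4.3.3, and were tested on simulated data. The stricter rule for parts and totals without red blood cell genes were added after seeing the data. Other alternatives were the read minimum, size, length scaling, pseudocount, filter and library scaling.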

Additional observations from a re-analysis of the deposited data

How the results depend on the processing

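No paired analysis was possible because each genotype had 1 library, and for the same reason none could be left out. The count of 1350 parts past 20 points was 3097, 775 and 442 at read minimums of 20, 100 and 200, was 4374 and 684 at 10 and 30 points, 829 under the stricter rule chosen after seeing the data, and 594 with each gene counted once. Genes with such a part numbered 19 in the RBM20 list and 6 in the sarcomere list at a minimum of 20 reads, and 5 in the muscleblind and CELF list at 100 reads. Genes past the log2 limit numbered 288 (107 higher, 181 lower) with a pseudocount of 0.1 CPM and 65 at a mean of 5 CPM. With TMM factors, the median of ratios, totals without Ttn and the 10 genes with most reads, and totals without red blood cell genes (added after seeing the data), list medians of the log2 ratio were in that order 2.06, 2.05, 2.02 and 2.05 for red blood cell markers, 1.41, 1.39, 1.39 and 1.41 for skeletal muscle markers, 0.30, 0.28, 0.26 and 0.29 for Z-disc genes, 0.46, 0.44, 0.43 and 0.45 for heart failure genes, and -0.10, -0.12, -0.14 and -0.11 for splicing factors. These scalings add nearly the same amount to every gene. The skeletal muscle median was 0.036 without the filter, where genes near 0 enter, and 1.72 at a mean of 5 CPM. The immune cell median was -0.60 with a pseudocount of 0.1 CPM and -0.63 at a mean of 5 CPM. The median of all genes, -0.10, was 0.01 with totals without red blood cell genes, and list medians this close to 0 have no firm sign. None of the other values recomputed changed sign. Parts with few exclusion reads and genes near 1 CPM are limited by depth.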
